A study of Mus musculus with 38 samples.

Results

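The effect of genotype after chronic stress was measured in the medial prefrontal cortex of male mice, by comparing 4 libraries of stressed mutants with 6 libraries of stressed controls. These 10 libraries, chosen by the column names of the count table, are part of 38 bulk RNA sequencing libraries. Controls carried SSTCre, a Cre recombinase expressed in neurons that make somatostatin. Mutants carried SSTCre too and were in addition homozygous for a floxed allele, which Cre recombines in those neurons. Both groups underwent chronic variable stress (CVS) for 21 days, and the tissue was taken 24 hours after the last stressor. The sources used here do not give the ages of the mice. The same contrast in 3 mutant and 5 control males without stress (NS) and in 5 mutant and 5 control females after CVS served for comparison. Mutants and controls are numbered here by library. The labels name each library separately without stating how animals map to libraries, so the p-values measure the spread between these samples.

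Somatostatin neurons are inhibitory interneurons that contact the dendrites of pyramidal cells, and the control that they exert on the prefrontal cortex has been tied to the behavioural response to stress. GABA, their main transmitter, acts on chloride channels of the GABA-A family, which are pentamers of several subunit types. Each library holds RNA of all cells of the dissected tissue, while Cre acts in somatostatin neurons, a minority of cortical cells. In such bulk samples, fewer cells of a type and less RNA per cell cannot be told apart.

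Total counts ranged over 19.2 to 21.9 M in the 4 mutants and 18.9 to 24.0 M in the 6 controls. The difference in means was smaller than the spread (20.8 ± 1.30 M in mutants, 20.95 ± 1.90 M in controls, SD, exact two-sided permutation p = 0.895). In a principal component analysis of the 10 libraries, mutants 1, 2 and 3 lay between -27.0 and -12.6 on the first component, which held 15.2% of the variance. Mutant 4 lay apart from them at 16.6, among and just beyond the controls, which ranged over -2.37 to 15.6. Control 1 held 16.6 CPM (counts scaled to a library total of 1e+06) of Cdhr1, a cadherin-related gene that is high in the olfactory bulb, against 1.80 to 4.15 CPM in the other 9 stressed males. As markers of cortex, all 22 deep-layer and all 16 upper-layer glutamatergic genes passed the filter on low counts. Of the 13 listed names of olfactory bulb markers, 12 were in the count table and 7 could be tested. The summed level of the 12 was 621 to 697 CPM in mutants and 594 to 649 CPM in controls. It was 629 CPM in control 1, inside the range of the controls. That range is wider than the whole Cdhr1 level, so the sum cannot show whether other bulb markers followed Cdhr1. By the median log2 deviation of the 7 tested members from the control mean, control 1 was the highest control at 0.15. The other controls lay at -0.28 to 0.084 and the mutants at 0.10 to 0.16. Tbx21, Eomes, Omp and Barhl2 were too low for testing, and no member passed the test. Mutants 2 and 3 of the NS males also stood apart in Cdhr1, at 25.7 and 27.8 CPM.

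One library went against its label in part. Gm12663, a processed pseudogene, gave 25 to 63 raw counts in the other 16 mutant libraries of the series, both sexes and stress states included, and 0 to 8 in all 21 control libraries. Mutant 1 of the stressed males had 0 counts of it, which lies among the controls and allows a level of up to 0.156 CPM (3 counts, counting error only). Pttg1, which encodes securin, an inhibitor of chromosome separation, had 378 raw counts in that library, 1 to 235 in the other 16 mutant libraries and 275 to 510 in the controls. In level, Pttg1 stood at 19.4, 10.8, 0.0917 and 0.296 CPM in mutants 1 to 4, against a lowest of 18.2, a median of 18.96 and a highest of 21.6 CPM in the stressed control males. Mutant 1 was again among the controls, mutant 2 lay in between, and mutants 3 and 4 were close to 0. Ublcp1, whose product is a phosphatase that acts on the proteasome, had 34.7, 29.1, 24.8 and 25.1 CPM in mutants, against a lowest of 32.9, a median of 35.8 and a highest of 43.3 CPM in controls. Mutants 2, 3 and 4 lay below every control, and mutant 1 lay among them. In contrast, Ccng1 was as high in mutant 1 (94.8 CPM) as in the other mutants. Throughout, mutant 1 means the library labelled so. The genes called without it, and some values that move with it, are also given.

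**Figure D1:**
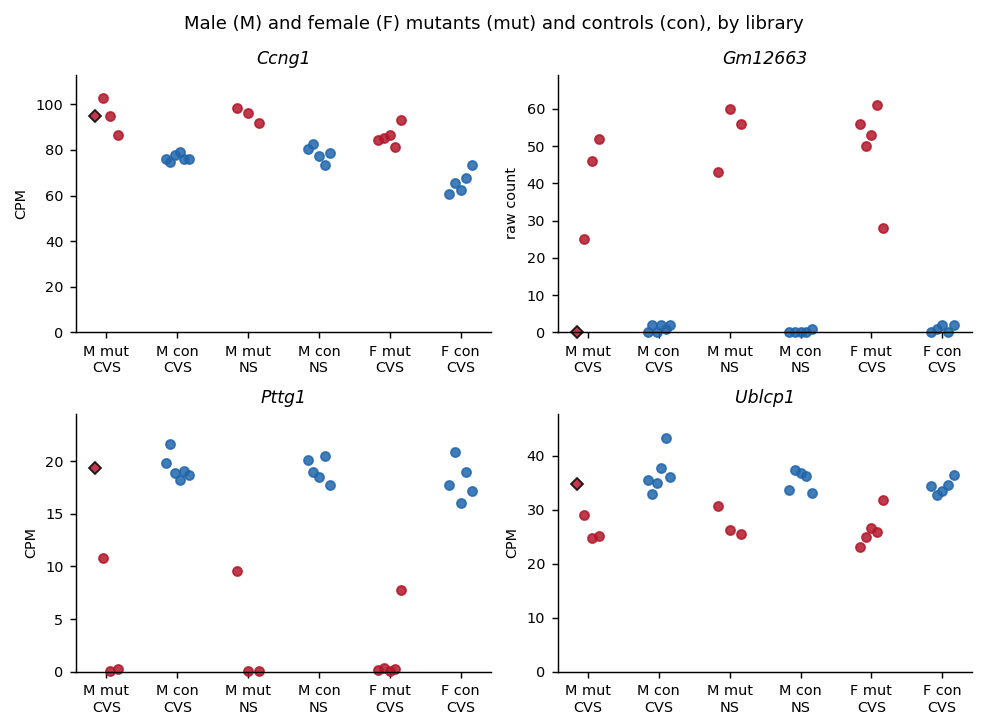
Ccng1, Pttg1 and Ublcp1 (CPM) and Gm12663 (raw counts) in each library of 6 groups, mutants in red and controls in blue, with a diamond for the library labelled stressed male mutant 1. In Gm12663, Pttg1 and Ublcp1 the diamond sits among the controls (0 counts, 19.4 and 34.7 CPM), and in Ccng1 among the mutants (94.8 CPM).

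Few transcripts differed between genotypes in the stressed male cortex: 9 of 17212 tested genes (0.0523%) passed an adjusted p of 0.05 in edgeR's quasi-likelihood test, 3 of them higher in mutants (0.0174%) and 6 lower (0.0349%). Higher were Ccng1, Crym and the pseudogene Gm12663. Lower were Penk, the precursor of the enkephalins, the retinaldehyde dehydrogenase Aldh1a1, and Cpne9, Golm1, Megf11 and Igfn1. Changes were small: apart from Gm12663, fold changes of mutants over controls lay between 0.580 for Igfn1 and 1.35 for Crym. At an unadjusted p under 0.05 there were 643 genes with a higher and 668 with a lower level in mutants, and the median log2 fold change over all tested genes was -0.0023. DESeq2 called 27 genes, which included all 9, and limma voom called 6. Without the filter on low counts, edgeR called 43 genes. Unless another fit is named, genes said below to pass or to be called did so in edgeR's test with the filter. Where groups are said not to overlap, the share of all tested genes without overlap was not counted. Genes named for a small p tend not to overlap, so for them a lack of overlap adds no support of its own. Without the library labelled mutant 1, 6 genes were called, namely Gm12663, Aldh1a1, Ccng1, Ublcp1, Penk and Cpne9. Crym, Golm1, Megf11 and Igfn1 were not called in that fit (adjusted p = 0.0834 to 0.179). Without mutant 1 and the 3 libraries that stood apart in Cdhr1, a set chosen after the data were seen, the same 6 genes and Samd14 were called. Leaving out mutant 3 or mutant 4 left Ccng1 as the 1 called gene.

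**Figure D2:**
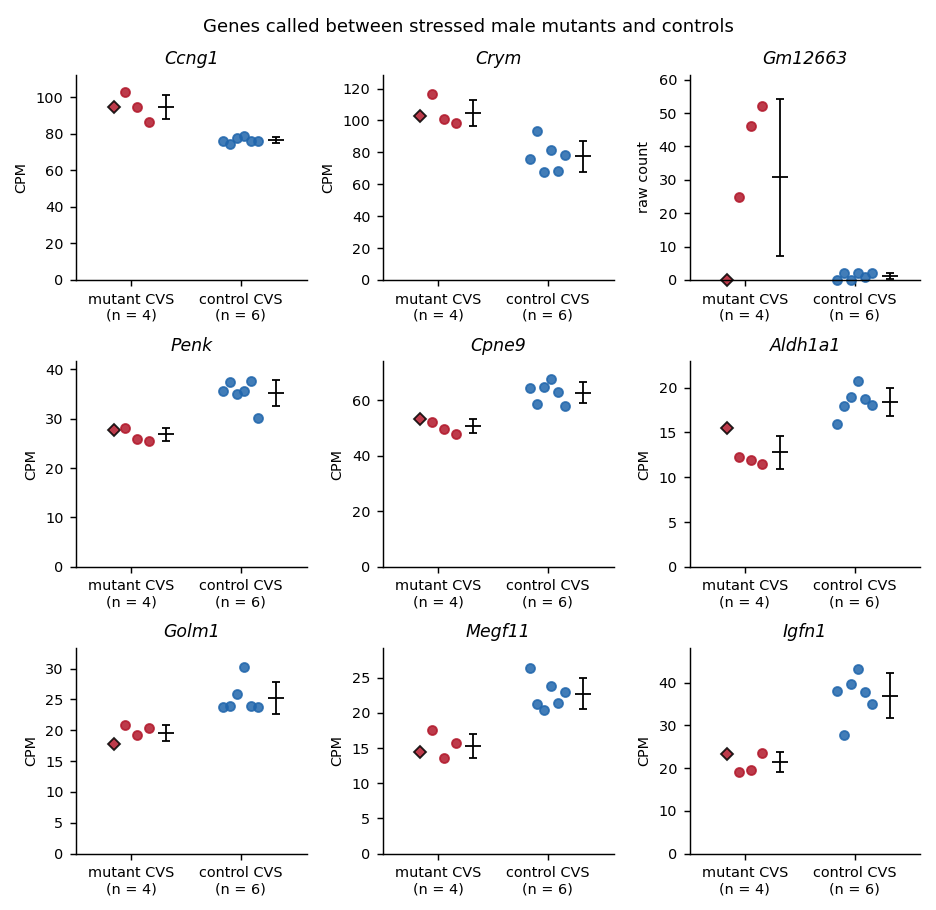
Levels of the 9 called genes in 4 stressed male mutants (red) and 6 stressed male controls (blue), in CPM, or raw counts for Gm12663. Points are libraries, the diamond is mutant 1, and bars give the mean and SD. In every panel but Gm12663, the lowest or highest mutant stays clear of all 6 controls, as for Penk with at most 28.1 CPM in mutants and at least 30.3 CPM in controls.

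Ccng1 encodes cyclin G1, a target of p53 that acts in the feedback on p53 itself. Its level was 94.8, 103, 94.8 and 86.3 CPM in mutants 1 to 4, against a lowest of 74.5, a median of 75.9 and a highest of 78.9 CPM in controls. All 4 mutants lay above all 6 controls. The means were 94.6 ± 6.63 CPM in mutants and 76.5 ± 1.56 CPM in controls (SD, n = 4 and 6), a 1.24-fold difference (log2 fold change 0.31 ± 0.046 SE, adjusted p = 0.00437). Ccng1 passed the test in all 10 fits that left out 1 library, with an adjusted p of at most 0.0438. No other p53 target passed. Of 22 tested members, 6 had a log2 fold change above 0 and 16 below 0, the median was -0.047, and Ccng1 was the 1 member that passed. Sesn1, Zmat3, Tigar and Mdm2, which follow Ccng1 by p in that list, had adjusted p-values of 0.59 or above. Mutants differed from controls at least in carrying the floxed allele and in its recombination. The part of each in these results was not tested.

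Crym encodes mu-crystallin, a cytosolic protein that binds thyroid hormone, and in the cortex it is known as a marker of deep-layer projection neurons. It had 103, 117, 101 and 98.7 CPM in mutants, against a lowest of 67.5, a median of 77.01 and a highest of 93.1 CPM in controls. Again no mutant overlapped a control, although the gap between mutant 4 and the highest control was narrow. Mutants averaged 105 ± 8.16 CPM and controls 77.4 ± 9.44 CPM (SD, n = 4 and 6), a 1.35-fold difference (log2 fold change 0.44 ± 0.078 SE, adjusted p = 0.0420). This call rested on most libraries at once: it was kept in 1 of 10 fits that left out a library, that without control 2, and the adjusted p ranged over 0.0011 to 0.164. Crym also lost its call with the 2 groups alone, with all 38 libraries, and without mutant 1 and the 3 libraries apart in Cdhr1. Among 15 genes of thyroid hormone transport, activation and response, 9 had a positive log2 fold change and the median was 0.022, with Crym as the 1 call. Thra, the main nuclear thyroid hormone receptor of the brain, had 917, 953, 879 and 928 CPM in mutants and a lowest of 734, a median of 814 and a highest of 874 CPM in controls. Its groups did not overlap either, and it did not pass (log2 fold change 0.18 ± 0.046 SE, adjusted p = 0.177), except in the fit without the filter (adjusted p = 0.0145). Klf9 and Hr, both induced by the hormone, stood at -0.13 and -0.34, and Dio2, which activates the hormone, at -0.16 (adjusted p = 0.508, 0.620 and 0.708).

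Gm12663 had 0, 25, 46 and 52 raw counts in mutants 1 to 4, against 0, 2, 0, 2, 1 and 2 in the 6 controls. Mutants 2, 3 and 4 lay well above all controls and mutant 1 lay at the bottom, so the groups overlapped. The adjusted p was 0.0170 with mutant 1 and 3.59e-07 without it. The call was kept in 4 of 10 fits with 1 library left out, those without control 2, control 6, mutant 1 or mutant 2, and the adjusted p reached 0.119. As a processed pseudogene it resembles a parent transcript, so reads may have been shared with that transcript in counting.

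Among the lower genes, Penk kept its call in the most fits with 1 library left out. Its product is cut into the enkephalins, opioid peptides that are made by some cortical interneurons, and they act on delta and mu opioid receptors. Penk had 27.8, 28.1, 25.99 and 25.5 CPM in mutants, against a lowest of 30.3, a median of 35.7 and a highest of 37.6 CPM in controls. No mutant reached the lowest control. Means were 26.8 ± 1.29 CPM in mutants and 35.3 ± 2.66 CPM in controls (SD, n = 4 and 6), which is 0.761-fold (log2 fold change -0.39 ± 0.064 SE, adjusted p = 0.0101). The call was kept in 8 of 10 fits with 1 library left out and missed the threshold without mutant 3 (adjusted p = 0.113) or mutant 4 (adjusted p = 0.0706), as well as with all 38 libraries in the fit (adjusted p = 0.0814). An exon of Penk overlaps the opposite-strand gene A830012C17Rik. The kit marks strand, but the sources used here do not say whether counting used strand.

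No other member of the opioid system passed. Of 8 peptide and receptor genes, 4 had a log2 fold change above 0 and 4 below 0, with a median of -0.015. Pdyn, the dynorphin precursor, had 30.4, 32.7, 37.2 and 29.8 CPM in mutants and a lowest of 26.5, a median of 28.6 and a highest of 32.9 CPM in controls, with overlapping groups and a log2 fold change of 0.15 (adjusted p = 0.701). Pomc, the precursor of beta-endorphin, was near the limit of detection at 0.974, 1.66, 0.825 and 1.28 CPM in mutants and a lowest of 0.414, a median of 0.870 and a highest of 0.937 CPM in controls. Mutant 3 lay among the controls and the others above them, without a call (adjusted p = 0.623). Oprd1, the delta receptor on which enkephalin acts, had 18.05, 21.8, 24.8 and 24.6 CPM in mutants and a lowest of 21.0, a median of 24.2 and a highest of 27.1 CPM in controls (log2 fold change -0.13, adjusted p = 0.783). Its groups overlapped too. Among 21 tested neuropeptide genes, 13 had a positive log2 fold change (median 0.038), and Penk was the 1 call in edgeR. Grp, which encodes gastrin-releasing peptide, came closest of the rest, with 12.7, 15.4, 16.5 and 14.9 CPM in mutants and a lowest of 7.85, a median of 9.43 and a highest of 13.5 CPM in controls (log2 fold change 0.56 ± 0.12 SE, adjusted p = 0.0866). Mutant 1 lay among the controls and the other mutants above them, and without mutant 1 the log2 fold change was 0.63 (adjusted p = 0.0583). Grp was called by DESeq2 (adjusted p = 0.00718) and by edgeR without the filter (adjusted p = 0.000142).

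Aldh1a1, one of the dehydrogenases that make retinoic acid from retinaldehyde, had 15.5, 12.3, 11.9 and 11.5 CPM in mutants, against a lowest of 15.9, a median of 18.4 and a highest of 20.8 CPM in controls. Mutants 2, 3 and 4 were close together and well below the controls, while mutant 1 lay just under the lowest control. Means were 12.8 ± 1.83 CPM in mutants and 18.4 ± 1.57 CPM in controls (SD, n = 4 and 6; log2 fold change -0.53 ± 0.091 SE, adjusted p = 0.0126). Without mutant 1 the log2 fold change was -0.63 (adjusted p = 0.00192), and 6 of the 10 fits that left out a library kept the call. It was lost without mutant 2, 3 or 4 or without control 4, with adjusted p-values of 0.0566 to 0.126. The gene was also not called when all 38 libraries were fitted together (adjusted p = 0.159).

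No other gene of retinoic acid metabolism and signalling passed. Of 17 tested genes, 10 had a log2 fold change above 0 and 7 below 0, and the median was 0.017. Aldh1a3, another of the dehydrogenases, had 6.67, 6.22, 7.52 and 5.22 CPM in mutants and a lowest of 3.56, a median of 4.81 and a highest of 7.29 CPM in controls, a positive log2 fold change of 0.40 that did not pass (adjusted p = 0.581). Its groups overlapped through control 1, the highest control. Cyp26b1, the enzyme that breaks retinoic acid down, had a log2 fold change of -0.41 (adjusted p = 0.727), which was -0.71 (adjusted p = 0.509) without mutant 1. Meninges are a further source of retinoic acid enzymes, and the summed level of 14 meningeal fibroblast markers was 1212, 413, 712 and 304 CPM in mutants 1 to 4, against 306 to 891 CPM in controls. That level varied widely within each group, and the ranges overlapped broadly. Of the 14 markers, 8 had a positive log2 fold change (median 0.053, or -0.071 with limma voom), and none passed. The part of the meninges in the Aldh1a1 result was not tested.

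Cpne9 belongs to the copines, proteins that bind phospholipids in the presence of calcium. It had 53.3, 51.9, 49.7 and 47.6 CPM in mutants, against a lowest of 57.8, a median of 63.6 and a highest of 67.5 CPM in controls. All mutants lay below all controls. Mutants averaged 50.6 ± 2.51 CPM and controls 62.6 ± 3.78 CPM (SD, n = 4 and 6; log2 fold change -0.31 ± 0.052 SE, adjusted p = 0.0126). The call was kept in 7 of 10 fits with 1 library left out and lost without control 4, mutant 3 or mutant 4 (adjusted p = 0.0566 to 0.119). Of 8 tested copines, 5 had a log2 fold change above 0 and 3 below 0, the median was 0.078, and Cpne9 alone passed. Cpne6, the next by p, had 155, 162, 160.1 and 146 CPM in mutants and a lowest of 125, a median of 146 and a highest of 159.8 CPM in controls (log2 fold change 0.11, adjusted p = 0.675). Its groups overlapped. Cpne5 stood at -0.12 (adjusted p = 0.693). An exon of Cpne9 overlaps the opposite-strand gene Gm43935, with the same limit as for Penk.

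Golm1 encodes a membrane protein of the Golgi apparatus. It had 17.8, 20.8, 19.3 and 20.3 CPM in mutants, against a lowest of 23.7, a median of 23.9 and a highest of 30.2 CPM in controls. The groups did not overlap. Means were 19.6 ± 1.31 CPM in mutants and 25.2 ± 2.57 CPM in controls (SD, n = 4 and 6; log2 fold change -0.37 ± 0.070 SE, adjusted p = 0.0395). The call was kept without control 2 and without control 6 and lost in the other 8 such fits, in which the adjusted p reached 0.179. It was also lost with limma voom, with the 2 groups alone, and without mutant 1 and the 3 libraries apart in Cdhr1. Golm1 shares exon sequence with the opposite-strand gene Naa35. The promoters of Cpne9 and Golm1, 2 of the 6 lower genes, are shown because, of the 5 called genes whose promoter sequence was at hand, these 2 held GGGCGG. The sequences are RefSeq's on GRCm38.p6, from 250 bases before to 50 bases after the start, with capitals for the motifs CCAAT (bound by NF-Y), GGGCGG (bound by Sp1) and TATAAA (bound by TBP) on either strand.
Cpne9 promoter, chr6:113282057-113282356, plus strand: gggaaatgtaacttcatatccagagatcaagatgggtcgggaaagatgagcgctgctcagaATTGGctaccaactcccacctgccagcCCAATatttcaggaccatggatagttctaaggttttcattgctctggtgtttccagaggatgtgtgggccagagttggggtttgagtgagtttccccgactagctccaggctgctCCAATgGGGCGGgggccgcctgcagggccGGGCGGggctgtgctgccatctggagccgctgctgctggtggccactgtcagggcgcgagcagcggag
Golm1 promoter, chr13:59675735-59676034, minus strand: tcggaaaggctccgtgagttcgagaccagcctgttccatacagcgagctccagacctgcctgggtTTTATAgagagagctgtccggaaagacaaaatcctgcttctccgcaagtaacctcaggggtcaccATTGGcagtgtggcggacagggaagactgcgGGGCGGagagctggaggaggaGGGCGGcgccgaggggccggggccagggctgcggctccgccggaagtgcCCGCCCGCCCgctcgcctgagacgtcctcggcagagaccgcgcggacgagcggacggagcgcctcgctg
The Cpne9 window held 3 CCAAT and 2 GGGCGG motifs and no TATAAA. The Golm1 window held 1 CCAAT, 4 GGGCGG and 1 TATAAA. Among 32851 mouse promoters of the same length, 37.4% held CCAAT, 35.7% GGGCGG and 13.6% TATAAA.

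Megf11 encodes a transmembrane protein with EGF-like repeats that spaces interneurons of the mouse retina into mosaics. In cortex it is also listed among markers of oligodendrocyte precursors. It had 14.5, 17.5, 13.7 and 15.7 CPM in mutants, against a lowest of 20.4, a median of 22.2 and a highest of 26.4 CPM in controls, with no overlap. The log2 fold change was -0.56 ± 0.11 (SE, adjusted p = 0.0420), and the call was kept in 2 of 10 fits with 1 library left out, those without control 2 and without mutant 2 (adjusted p of all 10 between 0.0438 and 0.217). Megf11 also lost its call with limma voom, and without mutant 1 and the 3 libraries apart in Cdhr1. Its closest relative, Megf10, had 19.7, 20.8, 18.7 and 22.7 CPM in mutants and a lowest of 21.95, a median of 23.5 and a highest of 26.96 CPM in controls. Mutant 4 lay among the controls and the difference did not pass (log2 fold change -0.22, adjusted p = 0.431). Over the 5 MEGF genes the median was -0.072. Of the 16 oligodendrocyte precursor markers, 10 had a negative log2 fold change (median -0.033). Their summed level was 849 to 911 CPM in mutants and 878 to 927 CPM in controls, no precursor marker other than Megf11 passed, and the part of these cells in the Megf11 result was not tested.

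Igfn1, a protein with immunoglobulin and fibronectin type III domains best known from skeletal muscle, showed the largest fold change of the lower genes. It had 23.3, 19.1, 19.5 and 23.6 CPM in mutants, against a lowest of 27.6, a median of 37.9 and a highest of 43.3 CPM in controls. Mutants fell clear of the controls, which were themselves widely spread. Means were 21.4 ± 2.41 CPM in mutants and 36.9 ± 5.27 CPM in controls (SD, n = 4 and 6; log2 fold change -0.79 ± 0.14 SE, adjusted p = 0.0420). The call was kept in 1 of 10 fits that left out a library, that without control 2, and the adjusted p ranged over 0.00402 to 0.217. Igfn1 also lost its call without the filter on low counts, with 1 surrogate variable and with all 38 libraries. Leaving out mutant 1 and the 3 libraries apart in Cdhr1 lost it too.

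Next come the genes with the smallest p-values that did not pass in edgeR, given as values. On the higher side, Ly6h, a GPI-anchored modulator of nicotinic receptors, had 208, 233, 213 and 221 CPM in mutants and a lowest of 172, a median of 184 and a highest of 202 CPM in controls (log2 fold change 0.24 ± 0.049 SE, adjusted p = 0.0674). Samd14 had 51.6, 53.1, 59.9 and 60.1 CPM in mutants and a lowest of 34.3, a median of 42.2 and a highest of 48.9 CPM in controls (log2 fold change 0.41 ± 0.081 SE, adjusted p = 0.0696). Bace1, the beta-secretase that makes the first cut in amyloid precursor protein, had 113, 116, 117 and 115 CPM in mutants and a lowest of 98.2, a median of 102 and a highest of 105 CPM in controls (log2 fold change 0.18 ± 0.040 SE, adjusted p = 0.105). In all 3 genes the mutants lay above every control. All genes of this paragraph were picked by small p, so a lack of overlap adds no support of its own. Emid1, Pnck, Matn2 and D430001F17Rik, with log2 fold changes of 0.60, 0.27, 0.30 and 0.98, had adjusted p-values of 0.105 to 0.131. On the lower side, Gpr83, a G-protein-coupled receptor of the brain, had 20.1, 20.1, 18.2 and 19.4 CPM in mutants and a lowest of 22.3, a median of 24.6 and a highest of 25.9 CPM in controls (log2 fold change -0.32 ± 0.069 SE, adjusted p = 0.101). Vipr1, a receptor for vasoactive intestinal peptide, had 27.5, 30.7, 31.5 and 30.5 CPM in mutants and a lowest of 34.2, a median of 34.8 and a highest of 39.1 CPM in controls (log2 fold change -0.23 ± 0.057 SE, adjusted p = 0.175). Mfn1, which fuses mitochondria, had 62.7, 56.1, 59.2 and 63.2 CPM in mutants and a lowest of 65.8, a median of 69.0 and a highest of 74.3 CPM in controls (log2 fold change -0.21 ± 0.051 SE, adjusted p = 0.173). In these 3 genes, too, the groups did not overlap. Mei1, Ublcp1, Fam107a, Prss23 and Myo1e had log2 fold changes of -0.65, -0.37, -0.20, -0.34 and -0.29, with adjusted p-values of 0.131 to 0.175. These calls depended on the tool. DESeq2 called all genes of this paragraph but Vipr1, Fam107a and Myo1e, with adjusted p-values between 0.00171 for Samd14 and 0.0479 for Mfn1. Without the filter, edgeR called Ly6h, Samd14, Emid1, Pnck, Matn2, Gpr83, Mei1, Ublcp1, Fam107a and Prss23.

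Somatostatin neurons, in which Cre acts, are one part of the inhibitory system, and no listed gene of that system passed in edgeR with the filter. Sst itself had 129, 152, 144 and 158 CPM in mutants, against a lowest of 108, a median of 128 and a highest of 136 CPM in controls. Mutants 2, 3 and 4 lay above every control and mutant 1 among them, and the difference did not pass (log2 fold change 0.21 ± 0.058 SE, adjusted p = 0.311). It was 0.27 (adjusted p = 0.0943) without mutant 1. Without the filter on low counts Sst was called (adjusted p = 0.0116). Of 14 somatostatin neuron markers, 8 had a log2 fold change above 0 and 6 below 0, with a median of 0.070. Nos1, the neuronal nitric oxide synthase of long-range somatostatin neurons, stood at 0.29, Npy at -0.16 and Cbln4, a synapse organiser, at -0.43 (adjusted p = 0.506, 0.554 and 0.562). Their summed level was 713 to 758 CPM in mutants and 671 to 739 CPM in controls.

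Of 11 parvalbumin neuron markers, 8 had a negative log2 fold change (median -0.064). Kcnc1 and Kcnc2, potassium channels of fast-spiking cells, stood at -0.16 and -0.12 (adjusted p = 0.431 and 0.627). Syt2, the fast calcium sensor of their terminals, had 20.1, 18.9, 19.99 and 25.96 CPM in mutants and a lowest of 17.8, a median of 30.3 and a highest of 46.96 CPM in controls, a log2 fold change of -0.58 (adjusted p = 0.635). All mutants lay within the wide range of the controls. Of the 16 markers of VIP, CCK and Lamp5 neurons, 8 were positive and 8 negative (median 0.0095). The 14 tested GABA-A receptor subunit genes had a median log2 fold change of -0.013, with 6 positive and 8 negative. Gabra4, a subunit of extrasynaptic receptors, had 102, 108, 114 and 99.7 CPM in mutants and a lowest of 106, a median of 117 and a highest of 129 CPM in controls (log2 fold change -0.13 ± 0.055 SE, adjusted p = 0.569). Mutants 1 and 4 lay below the controls and the others among them. The 17 inhibitory postsynapse genes and the 12 genes of GABA synthesis, transport and chloride had medians of 0.0078 and -0.015. Compared with the median of -0.0023 over all tested genes, the lists of this paragraph lay close to it, except that of parvalbumin neurons, which lay lower.

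Of the neuronal marker lists, that of the deep cortical layers had the largest median. Of 22 deep-layer glutamatergic markers, 20 had a positive log2 fold change, with a median of 0.23, against 49.0% of all tested genes with a positive value. Crym, one of the 22, was the 1 that passed. Fezf2, the transcription factor that specifies subcerebral projection neurons, had 44.04, 51.6, 52.5 and 54.2 CPM in mutants and a lowest of 39.6, a median of 41.5 and a highest of 48.4 CPM in controls (log2 fold change 0.25 ± 0.085 SE, adjusted p = 0.469). Tle4, a marker of corticothalamic layer 6 cells, had 43.2, 49.2, 43.5 and 63.3 CPM in mutants and a lowest of 34.97, a median of 42.1 and a highest of 46.7 CPM in controls (log2 fold change 0.26 ± 0.10 SE, adjusted p = 0.556). Foxp2, another layer 6 marker, had 9.64, 10.1, 8.48 and 15.8 CPM in mutants and a lowest of 6.63, a median of 8.36 and a highest of 9.22 CPM in controls (log2 fold change 0.43 ± 0.18 SE, adjusted p = 0.600). In each of the 3 genes some mutants lay among the controls, and mutant 4 was the highest library.

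The summed level of the deep-layer list was 834, 895, 851 and 1025 CPM in mutants 1 to 4, against 729 to 854 CPM in controls. Mutant 4 stood out at the top and mutants 1 and 3 lay among the controls. Without mutant 4 the median log2 fold change was 0.099, and without the 4 libraries that stood apart (mutant 1, control 1 and the 2 NS mutants) it was 0.15. Of the 16 upper-layer markers, 6 had a log2 fold change above 0 and 10 below 0 (median -0.060). Stard8, Wfs1 and Cux2 stood at -0.28, -0.19 and -0.11 (adjusted p = 0.426, 0.708 and 0.738). Their summed level was 1339, 1301, 1403 and 1135 CPM in mutants 1 to 4, against 1269.5 to 1406 CPM in controls, so mutant 4, highest for the deep layers, was lowest for the upper layers. The claustrum and endopiriform list, cells that lie beside the deep layers of more posterior sections, had 6 of 8 tested members positive and a median of 0.033. Its summed level was 438 to 482 CPM in mutants and 381 to 476 CPM in controls. Nnat had 87.5, 68.8, 51.6 and 63.1 CPM in mutants and a lowest of 35.2, a median of 43.8 and a highest of 65.8 CPM in controls (log2 fold change 0.51 ± 0.18 SE, adjusted p = 0.540). Mutants 1 and 2 lay above all controls and the others among them. The part of layer composition in the Crym result was not tested.

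**Figure D3:**
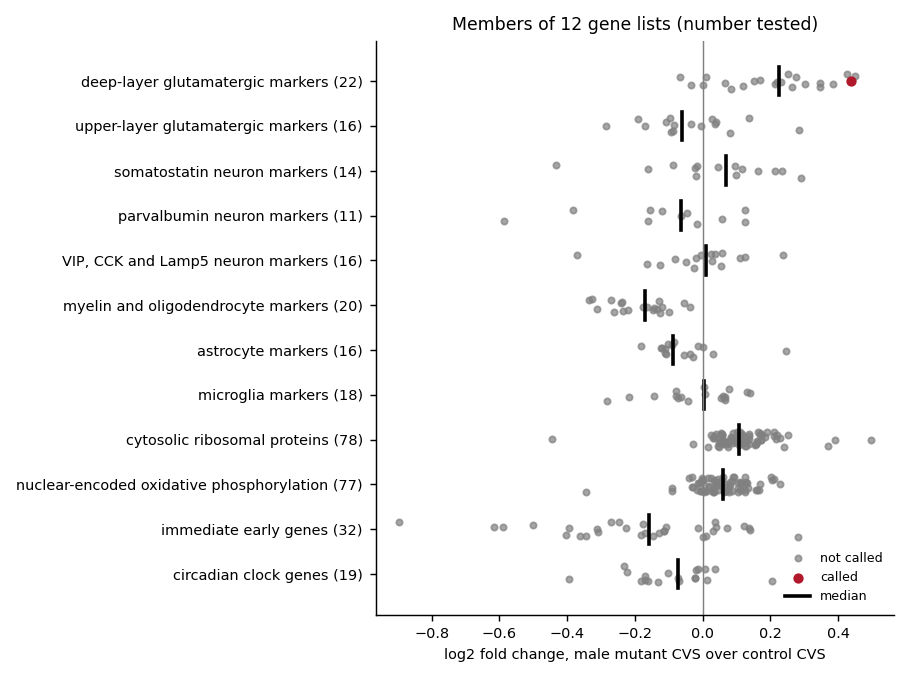
Log2 fold change, mutant over control, of each tested member of 12 gene lists in stressed males. Grey points did not pass, red points passed, and bars mark medians. The deep-layer median is 0.23, the myelin median -0.17 and the ribosomal protein median 0.11. Interneuron medians are 0.070 (somatostatin), -0.064 (parvalbumin) and 0.0095 (VIP, CCK and Lamp5).

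**Figure D4:**
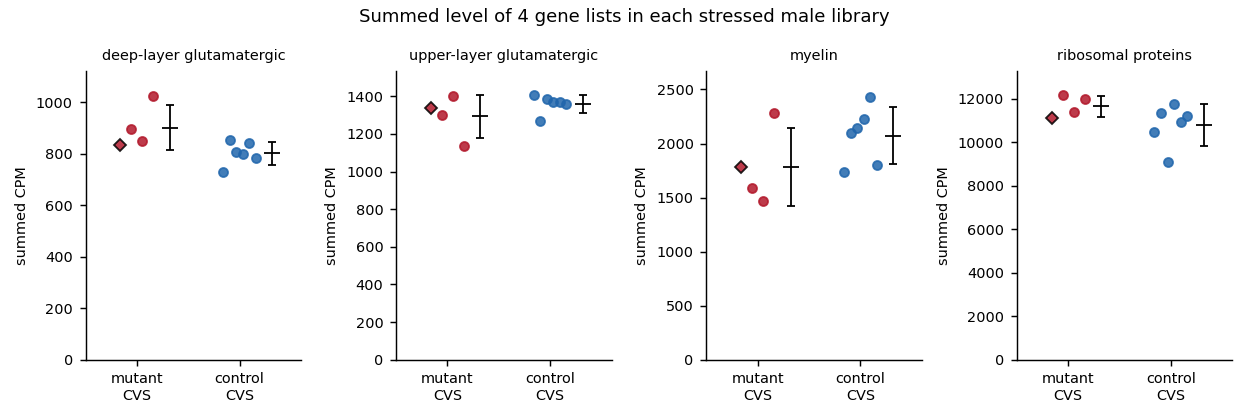
Summed CPM of 4 gene lists in each of 4 mutants (red, left, diamond for mutant 1) and 6 controls (blue, right), with mean and SD. Mutant 4 holds the highest deep-layer sum (1025 CPM), the lowest upper-layer sum (1135 CPM) and the highest myelin sum of the mutants (2286 CPM).

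Myelin genes had negative values throughout. All 20 myelin and oligodendrocyte markers had a negative log2 fold change, with a median of -0.17, but none passed. Mog, a surface glycoprotein of myelin, had 11.6, 11.6, 10.3 and 16.7 CPM in mutants and a lowest of 12.2, a median of 16.7 and a highest of 17.5 CPM in controls (log2 fold change -0.31 ± 0.14 SE, adjusted p = 0.647). Aspa, which splits N-acetylaspartate in oligodendrocytes, had 4.15, 3.83, 3.39 and 4.88 CPM in mutants and a lowest of 3.93, a median of 5.16 and a highest of 5.84 CPM in controls (log2 fold change -0.33 ± 0.14 SE, adjusted p = 0.614). Mutant 4 lay among the controls in both genes. Tspan2 stood at -0.24 (adjusted p = 0.647). The summed level of the list was 1783, 1587, 1469 and 2286 CPM in mutants, against 1732 to 2426 CPM in controls. Mutants 2 and 3 lay below all controls, mutant 1 at their low end and mutant 4 near their top. Without mutant 4 the median was -0.32.

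Among the other glia, 13 of 16 astrocyte markers had a negative log2 fold change (median -0.087, or -0.028 without mutant 4), and again none passed. Slc1a2, the main glutamate transporter of astrocytes, had 3102, 3187, 2989 and 3137 CPM in mutants and a lowest of 3244, a median of 3399 and a highest of 3487 CPM in controls. These groups did not overlap, and the difference did not pass (log2 fold change -0.12 ± 0.044 SE, adjusted p = 0.508). S100b stood at -0.18 (adjusted p = 0.426) and Hes5, a Notch target, at 0.25 (adjusted p = 0.557). Of 18 microglia markers, 10 were positive (median 0.0051). Of 17 endothelial and pericyte markers, 6 were positive (median -0.027). Striatal markers, 12 tested, had a median of 0.088, blood markers, 7 tested, of -0.13, and choroid plexus markers, 4 tested of 9, of 0.13. No member of these lists passed.

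Most cytosolic ribosomal protein genes had small positive values, and none was called in edgeR with the filter. Of 78 such genes, 76 had a positive log2 fold change, with a median of 0.11 and a range of -0.44 to 0.50. Rps26 had 109.9, 121, 104 and 113 CPM in mutants and a lowest of 79.3, a median of 99.2 and a highest of 107 CPM in controls (log2 fold change 0.22 ± 0.060 SE, adjusted p = 0.327), and the fit without the filter called it (adjusted p = 0.0145). Rpsa had 326, 359, 293 and 319 CPM in mutants and a lowest of 234, a median of 284 and a highest of 296 CPM in controls (log2 fold change 0.25 ± 0.070 SE, adjusted p = 0.373). In both genes mutant 3 lay among the controls and the other mutants above them. The summed level of the list was 11131, 12151, 11379 and 11970.1 CPM in mutants, against 9069.6 to 11777 CPM in controls, and mutants 1 and 3 lay within the range of the controls. Without control 3, the lowest library, the median was 0.064. Near-identical pseudogene copies make counts of single ribosomal protein genes uncertain. Of 77 nuclear-encoded oxidative phosphorylation genes, 62 had a positive log2 fold change (median 0.059, or 0.026 without control 3). Ndufb7, a subunit of complex I, had 52.5, 53.98, 53.2 and 52.9 CPM in mutants and a lowest of 41.6, a median of 47.1 and a highest of 48.3 CPM in controls, with no overlap (log2 fold change 0.20 ± 0.049 SE, adjusted p = 0.175). DESeq2 called it (adjusted p = 0.0412). By contrast, 3 of the 13 mitochondrially encoded genes were positive (median -0.055). The mitochondrial share of counts averaged 5.82% in mutants and 6.05% in controls (exact two-sided permutation p = 0.381).

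Genes that respond to activity and stress hormone did not pass either. Of 32 immediate early genes, 22 had a negative log2 fold change, with a median of -0.16. With 1 library left out that median ranged over -0.24 to -0.096. Dusp4, a phosphatase that switches off MAP kinases, had 7.69, 7.56, 9.08 and 5.07 CPM in mutants and a lowest of 9.21, a median of 11.1 and a highest of 12.9 CPM in controls, with no overlap (log2 fold change -0.62 ± 0.23 SE, adjusted p = 0.554). Dusp5 stood at -0.40 (adjusted p = 0.655). Of 24 glucocorticoid-responsive genes, 13 were positive (median 0.017). Nfkbia had 16.1, 17.7, 17.1 and 16.2 CPM in mutants and a lowest of 13.8, a median of 14.8 and a highest of 15.7 CPM in controls, without overlap and without a call (log2 fold change 0.19 ± 0.088 SE, adjusted p = 0.639). Plin4, a lipid droplet protein, was at -0.84 (adjusted p = 0.647). Of 19 circadian clock genes, 15 had a negative log2 fold change (median -0.073). Ciart and Per3, both clock repressors, stood at -0.40 and -0.17 (adjusted p = 0.541 and 0.550).

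No gene of protein quality control passed, with 5 of 16 heat shock genes (median -0.020), 10 of 19 unfolded protein response genes (median 0.010) and 22 of 31 proteasome subunits (median 0.025) positive. Hspa1b, an inducible heat shock protein with a near-identical copy, had 9.998, 11.5, 11.4 and 11.1 CPM in mutants and a lowest of 12.1, a median of 16.1 and a highest of 20.7 CPM in controls (log2 fold change -0.57 ± 0.18 SE, adjusted p = 0.462). Every mutant lay below every control. Of 27 glutamate receptor genes, 17 were positive (median 0.0098).

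The called genes were then followed in males without stress. There, 3 of 17212 genes passed (0.0174%), namely Gm12663, Ccng1 and Rnf39, with 1055 genes at an unadjusted p under 0.05. Mutants 2 and 3 of these males stood apart in Cdhr1, and no fit of this comparison left both out. All 9 genes called under stress had the same sign without it, and Ccng1 and Gm12663 were also called. Ccng1 had 98.3, 95.98 and 91.7 CPM in the 3 unstressed mutants and 80.5, 82.5, 77.4, 73.3 and 78.6 CPM in the 5 unstressed controls, again without overlap (log2 fold change 0.28 ± 0.052 SE, adjusted p = 0.0464). Penk had 30.9, 27.2 and 32.2 CPM in unstressed mutants and 32.4, 33.2, 34.5, 33.2 and 36.1 CPM in unstressed controls (log2 fold change -0.17 ± 0.072 SE, adjusted p = 0.776). Its groups did not overlap. Crym stood at 0.25 (adjusted p = 0.709), Aldh1a1 at -0.33 (adjusted p = 0.665) and Igfn1 at -0.31 (adjusted p = 0.826). Cpne9, Golm1 and Megf11 had log2 fold changes of -0.094, -0.13 and -0.066.

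Whether the genotype effect differed between stressed and unstressed males was tested by the interaction. None of 17212 genes passed (0%) in edgeR, DESeq2 or limma voom, with 720 genes at an unadjusted p under 0.05 in edgeR. Unstressed mutants 2 and 3, which stood apart in Cdhr1, enter this test as well. The interaction uses the stressed libraries in which the 9 genes were called, so their unadjusted p-values are not independent of that choice. They were 0.00485 for Megf11, 0.0114 for Cpne9, 0.0263 for Penk, 0.0334 for Igfn1 and 0.0338 for Golm1, and 0.114, 0.132, 0.154 and 0.707 for Gm12663, Crym, Aldh1a1 and Ccng1. After adjustment each was 0.995. The interaction for Penk was -0.22 ± 0.096 on the log2 scale (SE).

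In stressed females, 4 of 16435 genes passed (0.0243%), namely Gm12663, Ccng1, Ublcp1 and Vgf, with 1164 genes at an unadjusted p under 0.05. Ccng1 had 84.3, 85.2, 86.5, 81.3 and 93.1 CPM in 5 mutants and 60.6, 65.6, 62.2, 67.8 and 73.3 CPM in 5 controls, without overlap (log2 fold change 0.38 ± 0.052 SE, adjusted p = 8.94e-05). Penk had 32.4, 29.3, 35.3, 30.3 and 24.4 CPM in female mutants and 25.6, 27.7, 35.2, 31.9 and 37.3 CPM in female controls, with overlapping groups (log2 fold change -0.055 ± 0.11 SE, adjusted p = 0.955). Crym had a log2 fold change of 0.028 ± 0.11 SE (adjusted p = 0.978). Cpne9, Aldh1a1, Golm1, Megf11 and Igfn1 stood at -0.15, -0.16, -0.12, -0.21 and -0.32, and none of them passed. Levels were not compared across the sexes, whose libraries carry names of separate series.

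The sex difference of the genotype effect was tested over all 38 libraries. Males and females carry names of separate series, so sex and series cannot be told apart in it. The mitochondrial share of counts was 5.45 to 6.66% in stressed males. In stressed females it was 3.26 to 4.08% in controls and 3.40 to 3.95% in mutants. None of 17671 genes passed (0%) in edgeR or limma voom, DESeq2 called 1, Frat1, and 1256 genes had an unadjusted p under 0.05 in edgeR. Unadjusted values for the called genes, which again share the male libraries, were 0.00680 for Crym, 0.00966 for Penk, 0.00991 for Megf11, 0.0127 for Golm1 and 0.0435 for Cpne9. For Igfn1, Aldh1a1, Ccng1 and Gm12663 they were 0.0503, 0.0567, 0.300 and 0.539. Adjusted values lay between 0.578 and 0.926.

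**Figure D5:**
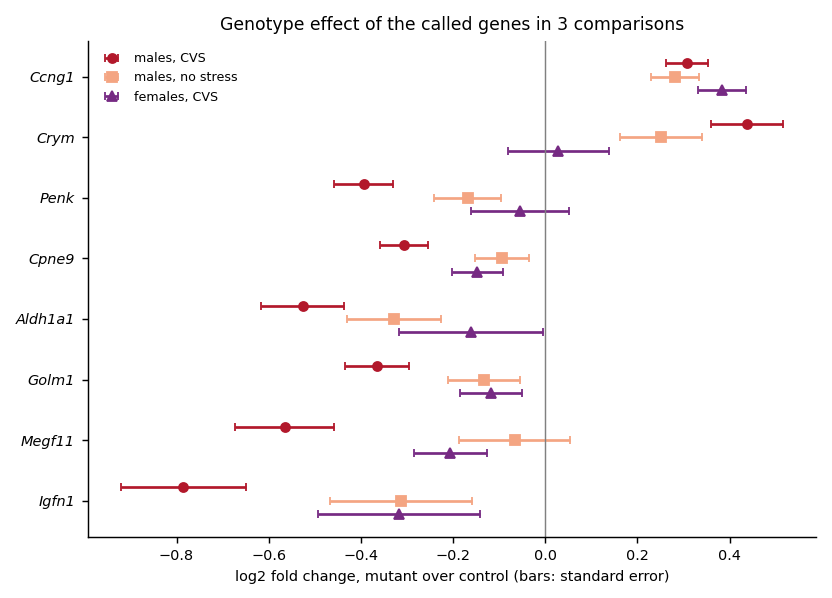
Log2 fold change of mutants over controls with standard error for 8 called genes in stressed males (red circles), unstressed males (orange squares) and stressed females (purple triangles). Ccng1 sits at 0.31, 0.28 and 0.38, while Penk sits at -0.39, -0.17 and -0.055.

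The same lists can be set beside these values in the other comparisons. Deep-layer markers were positive in 18 of 22 members in unstressed males (median 0.11) and in 14 of 22 in stressed females (median 0.027). Myelin markers were positive in 1 of 20 members in unstressed males (median -0.16) and in 8 of 20 in stressed females (median -0.034). Ribosomal protein genes were positive in 38 of 78 and 73 of 77 members, with medians of -0.0044 in unstressed males and 0.071 in stressed females. Oxidative phosphorylation genes were positive in 18 of 77 members in unstressed males and 47 of 77 in stressed females. Immediate early genes were positive in 0 of 32 members in unstressed males (median -0.55) and 24 of 31 in stressed females (median 0.24). In unstressed males and in the interaction, list values include unstressed mutants 2 and 3, which stood apart in Cdhr1, and were not refitted without them. Sst had log2 fold changes of 0.27 in unstressed males and 0.13 in stressed females, neither of which passed (adjusted p = 0.535 and 0.707). Gene by gene, no member of the 36 lists passed the interaction or the sex difference in edgeR. In the interaction, 31 of 32 immediate early genes (median 0.32), 17 of 22 deep-layer markers (median 0.16) and 8 of 20 myelin markers (median -0.051) were positive. So were 70 of 78 ribosomal protein genes (median 0.10) and 67 of 77 oxidative phosphorylation genes (median 0.082). In the sex difference, males minus females, 7 of 32 immediate early genes (median -0.38), 20 of 22 deep-layer markers (median 0.17) and 1 of 20 myelin markers (median -0.19) were positive. For ribosomal protein genes the count was 56 of 79 (median 0.044) and for oxidative phosphorylation genes 55 of 77 (median 0.057). These counts share libraries with the comparisons above, and no test was made over a list as a whole. Those of the sex difference are differences between the series as well.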

How the data were processed

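Messenger RNA of dissected medial prefrontal cortex was made into directional libraries and read as paired ends, per the labels' protocols. Reads were processed with fastp 0.23.2, STAR 2.7.10b and featureCounts on GRCm39, per the submitters' processing notes. The annotation release is not given in the sources used here. The authors deposited raw counts per gene for 38 libraries, with 57010 gene IDs, of which 22462 were 0 throughout and 52029 matched a symbol in GENCODE vM21, a GRCm38 annotation used for symbols and exon overlaps.

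The 18 male libraries in 4 groups were fitted with the quasi-likelihood model of edgeR 4.0.16 in R 4.3.3 (robust, TMM, filterByExpr with minimum count 10 and minimum total 15), which left 17212 genes and a biological coefficient of variation of 0.0831. Females (20 libraries) and all 38 libraries were fitted likewise. P-values were adjusted by Benjamini-Hochberg over all tested genes at 0.05. CPM are TMM-scaled, but for Cdhr1 by the raw total. SE is the log2 fold change divided by the root of F. Alternatives used DESeq2 1.42.0, limma 3.58.1 (voom), sva 3.50.0 (1 surrogate variable), RLE scaling, no filter, other sample sets and 1 library left out. Scripts were tested on simulated data. Exact permutation tests used scipy 1.17.1, and figures matplotlib 3.10.9.

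No 2 replicates were copies (21 pairs, chi-square per degree of freedom 4.31 to 13.0). Depths of 18.9 to 24.0 M counts put 3 counts at 0.125 to 0.158 CPM. Named genes were all called genes, the next 8 by p in each direction without predicted genes, and up to 4 members by p of each of 36 lists. The comparison and the lists were chosen with earlier results of these data known. Some genes that this rule names are not reported here.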

Additional observations from a re-analysis of the deposited data

Results flagged for a closer look

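In 10 of the 152 groups checked (76 genes in the 4 mutants and in the 6 controls of the stressed males), 1 library lay apart from its group by Dixon's test at the 95% level, which chance gives in about 1 in 20 groups. Among called genes, Penk was low in control 6 (30.3 CPM), which narrowed the gap to the mutants, and Golm1 was high in control 4 (30.2 CPM). Among genes that did not pass, Emid1 was high in mutant 3 (9.31 CPM), D430001F17Rik high in mutant 2 (2.67 CPM) and Vipr1 high in control 2 (39.1 CPM). Mutant 4 stood apart in Syt2 (26.0 CPM, highest mutant) and Per3 (66.8 CPM, highest mutant). Aldh1a3 was high in control 1 (7.29 CPM), Neu4 high in control 4 (10.7 CPM) and Dusp5 low in mutant 1 (5.38 CPM).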

How the results depend on the processing

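Of the 9 genes called between stressed male mutants and controls, DESeq2 called all among its 27 (15 higher, 12 lower), and a fit with no filter on low counts called 43 of 32046 genes (25 higher, 18 lower), 8 of them shared. RLE scaling called 9, limma voom 6, 1 surrogate variable 8, the 2 groups alone 9 (6 shared) and all 38 libraries 12 (5 shared). Leaving out 1 library gave 1 to 12 calls: 4, 12, 4, 2, 4 and 9 without controls 1 to 6, and 6, 5, 1 and 1 without mutants 1 to 4. Across these 10 fits Ccng1 was called in 10, Penk in 8, Cpne9 in 7, Aldh1a1 in 6, Gm12663 in 4, Golm1 and Megf11 in 2, and Crym and Igfn1 in 1. Without mutant 3 and without mutant 4, adjusted p-values were 0.113 and 0.0706 for Penk and 0.119 and 0.0706 for Cpne9. Gm12663 was not called by limma voom (adjusted p = 0.503).

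In unstressed males the 3 calls became 5 with DESeq2, 0 with limma voom, 11 with no filter, 5 with 1 surrogate variable and 0 to 6 with 1 library left out. In stressed females the 4 calls became 14 with DESeq2, 23 with no filter, 2 with all 38 libraries and 2 to 5 with 1 library left out. The interaction stayed at 0 in every setting run. The sex difference had 0 calls, 1 with DESeq2 and 0 to 0 with 1 library left out. The causes of these shifts were not tested. Medians of 2 marker lists turned sign with limma voom and without the 4 libraries in doubt, a setting added after seeing the data. For meningeal fibroblast markers the median was 0.053, against -0.071 with limma voom and -0.29 without those libraries. For olfactory bulb markers it was -0.17, against 0.099 with limma voom and 0.15 without those libraries. No paired analysis was possible because the replicate numbers only follow the order of the libraries. Genes near 3 counts per library, such as Gm12663 in controls, carry counting error that depth alone sets. The deep-layer and myelin medians moved most with mutant 4.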
